A study of Mus musculus with 4 samples.

Results

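The variable genes of the T cell receptor beta chain (Trbv genes) were examined in single-cell RNA sequencing of CD4 T cells from the small intestinal lamina propria. All 35 genes whose symbol is Trbv followed by a digit were taken, of 31053 genes counted. Of these, 22 are annotated as variable genes and 13 as variable pseudogenes. A cell barcode was given a Trbv call when it held at least 2 Trbv unique molecular identifiers (UMIs), all on 1 Trbv gene. There were 2291 such barcodes among the 19960 kept from recipients 1, 2 and 4.

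The recipients were irradiated Rag1-/- mice, which cannot form T or B lymphocytes. Each had received bone marrow in which wild type CD45.1 cells and CD45.2 cells of the genotype Bcl3-/- were mixed at 50% each. Analysis followed 16 weeks later. The sort took live CD45+CD3+CD4+ cells, and antibody tags against CD45.1 and CD45.2 gave the donor of each barcode (at least 10 tag UMIs and a 4-fold tag ratio). Every comparison lies inside a recipient, between cells of both donors or between cells with and without a programme gene. The Bcl3-/- label holds for every cell of the CD45.2 donors, not for T cells alone.

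A developing T cell joins 1 Trbv gene to a D and a J segment by cutting and rejoining the DNA, and the joined segment is spliced to a constant region, Trbc1 or Trbc2. The Trbv gene supplies most of the variable domain, including its first and second antigen-contact loops, and its last bases enter the third loop. Daughter cells inherit the joined gene, so a clone shares its Trbv gene, and usage is read as the share of cells on each gene. Thymic selection and the antigens met in the gut can both shape usage.

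The sequences below are the last 60 bases of the annotated transcripts, the germline end that is joined to D and J. They are shown for the 12 genes on which the comparisons turn and for Trbv31, the inverted gene. Capitals mark TGTGCN, searched on the transcript strand, in which TGT encodes the cysteine that opens the third loop. The motif stood in this window in 26 of 35 Trbv transcripts, 19 of them annotated as genes, and in 6.84% of all annotated transcripts of that length or more. Trbv1 does not hold these letters in the window.
Trbv2: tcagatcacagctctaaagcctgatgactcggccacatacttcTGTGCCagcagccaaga
Trbv3: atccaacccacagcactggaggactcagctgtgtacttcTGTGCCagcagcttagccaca
Trbv13-1: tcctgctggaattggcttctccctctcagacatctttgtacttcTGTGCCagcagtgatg
Trbv13-2: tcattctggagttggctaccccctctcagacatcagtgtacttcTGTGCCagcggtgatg
Trbv13-3: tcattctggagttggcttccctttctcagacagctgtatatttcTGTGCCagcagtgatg
Trbv12-1: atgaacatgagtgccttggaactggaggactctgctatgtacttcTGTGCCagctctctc
Trbv12-2: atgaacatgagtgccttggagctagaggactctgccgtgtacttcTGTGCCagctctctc
Trbv1: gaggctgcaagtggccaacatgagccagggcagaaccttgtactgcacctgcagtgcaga
Trbv14: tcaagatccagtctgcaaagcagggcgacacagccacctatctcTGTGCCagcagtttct
Trbv15: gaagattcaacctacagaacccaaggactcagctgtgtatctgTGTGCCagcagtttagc
Trbv16: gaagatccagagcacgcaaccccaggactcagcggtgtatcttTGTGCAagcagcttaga
Trbv29: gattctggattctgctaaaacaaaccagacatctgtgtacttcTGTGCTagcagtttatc
Trbv31: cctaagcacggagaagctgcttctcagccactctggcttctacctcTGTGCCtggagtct

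The transcripts of Trbv13-2 and Trbv13-3 are 90.6% identical over a global alignment, and those of Trbv12-1 and Trbv12-2 87.4%. No stretch of 60 bases was shared between any pair of the 35 transcripts. Counts within these families remain less certain where a read covers fewer bases. All 35 genes lie on chromosome 6 of GRCm38, 34 of them on the plus strand. Trbv31 (chr6:41557691-41558452) lies on the minus strand, downstream of both constant regions.

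The kept barcodes numbered 9301, 9244 and 1415 in recipients 1, 2 and 4, with medians of 5932, 5782.5 and 5836 UMIs. CD4 T cell markers were present as labelled: Cd3e was found in 94.1% of kept barcodes and Cd4 in 83.3% (means of 3 recipients). Of the CD8 markers, Cd8a was found in 0.569% and Cd8b1 in 2.50%. Cells with at least 3 Ccl5 UMIs, a group compared below, had Cd8a in 4.26% (highest recipient 10.6%) and Cd8b1 in 3.18%. Cd8b1 was found in 5.06% of CD45.1 and 2.23% of CD45.2 cells. The part of barcodes with CD8 markers in the comparisons was not tested. The targeted gene does not check the donor label. Bcl3 lay at 71.6, 75.9 and 70.6 CPM (UMI counts scaled to a common library size) in the CD45.2 cells of recipients 1, 2 and 4 and at 33.0, 22.9 and 14.4 CPM in their CD45.1 cells, higher where the label says Bcl3-/- (edgeR quasi-likelihood test, log2 fold change 1.48, SE 0.14, adjusted p = 0.000109). The 3′ reads may lie outside the deleted part, whose position the sources used here do not give, so donors are named by label throughout. Recipient 3 was not used: its library had 0.825 Trbv UMIs per 100 Trbc1 and Trbc2 UMIs, against 4.01, 4.22 and 4.70 in recipients 1, 2 and 4, and gave 53 calls from 3626 barcodes.

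The 3′ chemistry reads mostly the constant region. The variable gene was seen in a minority of cells, and the part of read position in this was not tested. A Trbv UMI was found in 41.7% of kept barcodes, and 11.5% had a call. The share with a call was 11.8%, 10.6% and 14.8% in recipients 1, 2 and 4, a mean of 12.4% ± 2.17 (SD, n = 3). With each barcode thinned to 3000 UMIs the mean was 4.78% ± 1.29. The background could be read only from 16 barcodes with B cell or myeloid genes and no Cd3 UMI. None of these 16 held a Trbv UMI, which allows a share of up to 18.75% at their median of 5817.5 UMIs.

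Cxcr5 cells had the highest share with a call. A call was made in 20.5% ± 3.56 of barcodes with a Cxcr5 UMI and in 11.9% ± 2.02 of the others (SD, n = 3), higher in each recipient. The median depth was 7006 against 5811 UMIs, and after thinning the shares were 5.90% ± 1.70 and 4.71% ± 1.46. The thinned share with a call was higher in Cxcr5 cells in recipients 1 and 2 (7.77% and 5.48% against 4.02% and 3.73%). It was lower in recipient 4 (4.44%, 4 of 90 barcodes, against 6.39%), so the order of this share was not kept in every recipient. The thinned share with any Trbv UMI was higher in Cxcr5 cells in 3 of 3 recipients (33.4%, 32.5% and 34.4% against 24.6%, 24.6% and 29.6%). Foxp3 cells (10.6%) and Ccl5 cells (10.6%) had mean shares below those of the other cells (12.9% and 12.7%). CD45.1 and CD45.2 cells had 13.0% ± 3.58 and 12.3% ± 1.98, which differed by less than the spread over recipients.

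Usage was uneven, and 4 genes held 50.9% of the calls. Trbv2 led in every recipient with 20.97%, 20.2% and 20.0% of the calls in recipients 1, 2 and 4, a mean of 20.4% ± 0.506 (SD, n = 3). Its range over recipients was the narrowest of the leading 4 genes, and the Wilson 95% intervals of the 3 shares overlapped. Trbv3 followed with 12.4%, 10.3% and 10.5% (mean 11.0% ± 1.17). Trbv13-2 held 9.75%, 13.0% and 8.10% (mean 10.3% ± 2.50). Trbv1, the gene farthest from the D segments, held 10.4%, 11.9% and 5.24% (mean 9.17% ± 3.49). Trbv3, Trbv13-2, Trbv1 and the next gene, Trbv19 (mean 8.78% ± 2.79), did not differ in order beyond their spread.

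By the SD of the share, recipients differed most at Trbv20, then at Trbv1 and Trbv19. Trbv20 held 4.47% and 4.17% of calls in recipients 1 and 2 and 13.8% in recipient 4, where 29 of 210 calls were on it (Wilson 95% interval 9.79 to 19.1%). For Trbv1, given above, recipient 4 had the low share of 5.24% (interval 2.95 to 9.13%), below the interval of recipient 2 (10.01 to 14.1%). Trbv19 held 10.8% and 10.0% in recipients 1 and 4 and 5.59% in recipient 2. Intervals cover counting error only, since cells of 1 clone are not independent choices of a gene.

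**Figure D1:**
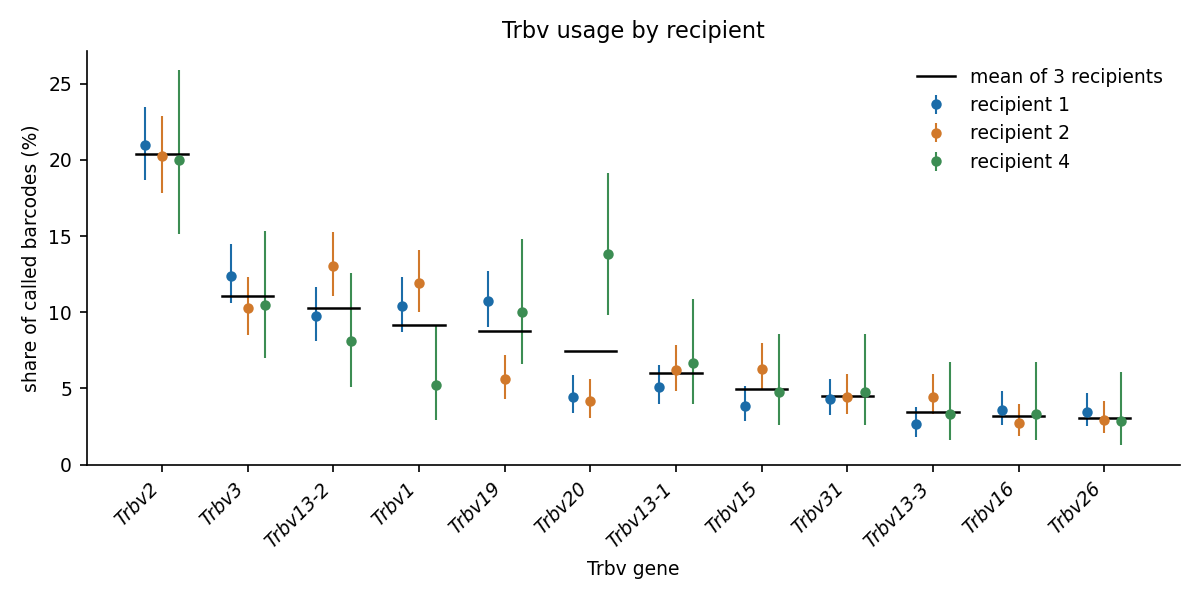
Share of called barcodes (%, y axis) on each of the 12 Trbv genes with a mean share of at least 3% (x axis), by recipient, with Wilson 95% intervals. The black line is the mean of 3 recipients. Trbv2 sits at 20.0 to 20.97% in all 3, and Trbv20 is apart in recipient 4 at 13.8%.

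The remaining genes with a mean of at least 3% were Trbv13-1 (5.99% ± 0.802), Trbv15 (4.96% ± 1.25), Trbv31 (4.51% ± 0.241), Trbv13-3 (3.48% ± 0.923), Trbv16 (3.21% ± 0.419) and Trbv26 (3.09% ± 0.327). With these, 12 genes held 92.4% of the calls. The Trbv13 family, 3 genes close to each other in sequence and position, together held 17.5%, 23.7% and 18.1%. The other 10 called genes had means between 0.0339% and 2.05%. Of the 35 genes, 17 were called in each of the 3 recipients.

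No call was made on 13 of the 35 genes. Of these, 11 had 0 UMIs among 13577 Trbv UMIs, which allows each a share of up to 0.0221%: Trbv6, Trbv7, Trbv8, Trbv9, Trbv10, Trbv11, Trbv12-3, Trbv18, Trbv25, Trbv27 and Trbv28. All of those are annotated as pseudogenes. Trbv21, annotated as a gene, had 25 UMIs and no call, and the pseudogene Trbv22 had 1 UMI. Pseudogenes took 39 of the 13577 UMIs in all, 38 of them on Trbv24, which also had the only pseudogene call.

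Genes differed in how many UMIs a positive cell gave, and this entered the calls. Barcodes with Trbv2 held 1.88 ± 0.132 Trbv2 UMIs (mean of 3 recipients, SD), and 43.0% of them had a call. Barcodes with Trbv31 held 1.23 ± 0.0207 and those with Trbv12-2 held 1.22 ± 0.0423, with 17.9% and 9.72% called. Among the 5111 barcodes with exactly 1 Trbv UMI, which the calls do not use, the order changed: Trbv13-2 led with 13.9% ± 1.53, followed by Trbv3 (11.9% ± 2.60) and Trbv2 (9.72% ± 0.534). Trbv31 held 8.08% ± 0.790 there, against 4.51% of the calls. Shares of calls were therefore compared between groups of cells for the same gene, and their order across genes depends on the UMIs required. Across the 35 genes, the shares of calls of the recipients correlated with r of 0.871 to 0.956, and shares of calls with single-UMI shares of the same recipient with r of 0.7996 to 0.886, values that describe genes sharing libraries and depth.

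**Figure D2:**
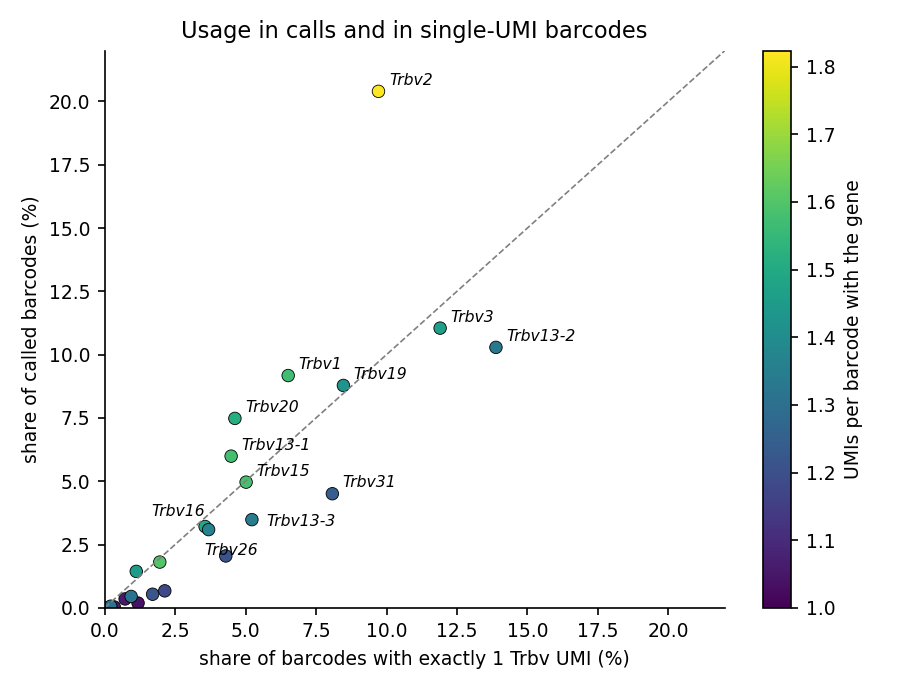
Mean share of called barcodes (%, y axis) against mean share of the barcodes with exactly 1 Trbv UMI (%, x axis) for the 24 Trbv genes with a UMI, over recipients 1, 2 and 4. Colour is the number of UMIs per barcode with the gene over the pooled barcodes, and the dashed line marks equal shares. Trbv2 lies far above the line at 20.4% against 9.72%, and Trbv31 below it at 4.51% against 8.08%.

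Usage did not follow the order of the genes on the chromosome. The plus-strand genes begin with Trbv1, 641 kb upstream of Trbd1, and end with Trbv30, 251 kb upstream. Trbv2 (chr6:41047340-41047995) and Trbv3 (chr6:41048290-41048828) are neighbours at 485 and 484 kb and held the highest and the next highest share. Trbv4 and Trbv5, the next genes at 473 and 470 kb, had means of 0.351% and 0.189%. Trbv30, the plus-strand gene nearest the D segments, had 0.0643%, and Trbv31, 24.5 kb downstream of Trbd1, had 4.51%.

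**Figure D3:**
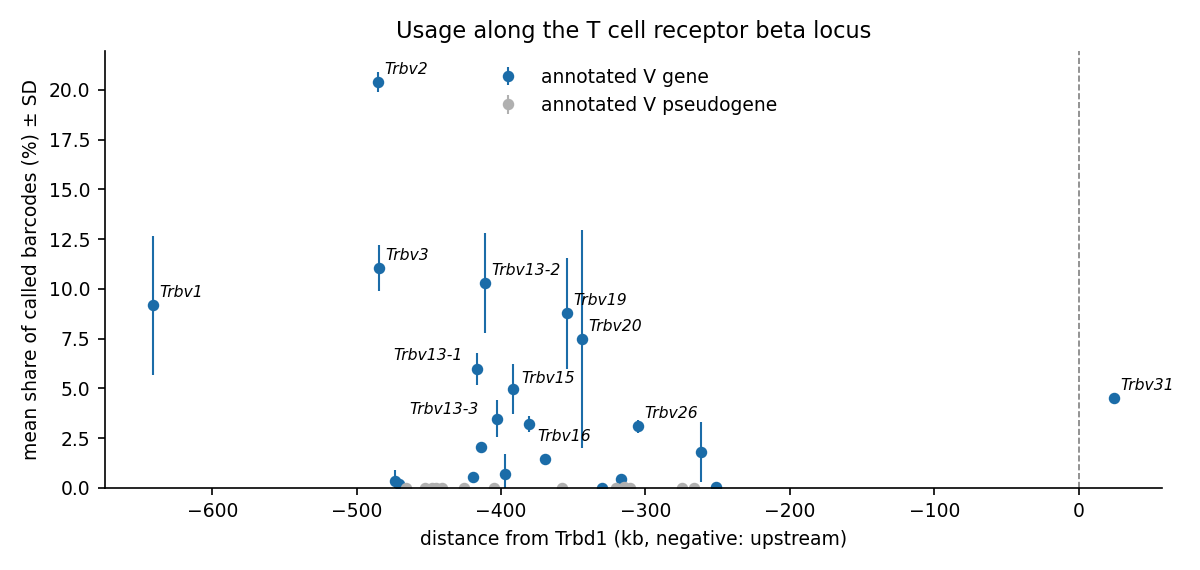
Mean share of called barcodes (%, y axis, with SD over 3 recipients) against distance from Trbd1 in kb (x axis, negative upstream) for all 35 Trbv genes. Highly used and unused genes lie side by side, and grey points mark annotated pseudogenes, of which 1 had a call.

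Of 3219 barcodes with at least 2 Trbv UMIs, 928 (28.8%) held several Trbv genes and had no call. At least 2 UMIs on each of 2 genes were found in 32, 33 and 4 barcodes of recipients 1, 2 and 4. The share with several genes was 54.3% of the 116 barcodes with both tags at similar levels, whose group had a median of 10516 UMIs, and 29.3% and 27.7% in CD45.1 and CD45.2 barcodes. Their part in the results was not tested beyond leaving out barcodes above 3 times the median UMI count.

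Whether the donors differed in usage was asked with summed UMIs per recipient and donor. The sides were unequal, with 8398, 8198 and 1289 CD45.2 barcodes and 736, 851 and 102 CD45.1 barcodes in recipients 1, 2 and 4. CD45.2 barcodes were 91.9%, 90.6% and 92.7% of those with a donor. Of the 16 Trbv genes tested in the comparison of CD45.2 with CD45.1 cells, 0 rose and 2 fell (12.5%), beside 12.9% of all 10997 genes called in either direction, 6.67% higher and 6.27% lower. The median log2 fold change was 0.06 over the Trbv genes and 0.00 over all genes. With DESeq2 no Trbv gene was called, and 5 of 16 had an unadjusted p under 0.05 in edgeR, beside 24.7% of all genes. The share called was thus at the background of this comparison.

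Trbv15 was lower in CD45.2 cells. Its summed level was 4.06, 6.04 and 5.69 CPM in the CD45.2 cells of recipients 1, 2 and 4 and 6.04, 17.9 and 6.41 CPM in their CD45.1 cells. The groups overlapped, and the CD45.1 cells of recipient 2 stood above the rest. The log2 fold change was -1.08 (SE 0.26, edgeR adjusted p = 0.0187), lower in 3 of 3 recipients. Without recipient 2 it was -0.46 with edgeR adjusted p = 0.647. The share of calls on Trbv15 was 3.57%, 5.48% and 3.74% in CD45.2 cells and 5.26%, 16.0% and 5.88% in CD45.1 cells (exact two-sided sign-flip permutation p = 0.25, the smallest that 3 recipients allow).

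Trbv29 was also lower in CD45.2 cells, at 2.54, 0.919 and 2.60 CPM against 8.62, 1.16 and 9.61 CPM in CD45.1 cells. The groups overlapped, and the CD45.1 sums of recipients 2 and 4 rested on 6 UMIs each. In recipient 4 a single CD45.1 barcode held all 6. The log2 fold change was -1.42 (SE 0.38, edgeR adjusted p = 0.0333). The call was lost without recipient 1 (edgeR adjusted p = 0.564) and without recipient 4 (0.0893). In barcodes with exactly 1 Trbv UMI the share was 1.88%, 1.10% and 2.82% in CD45.2 cells against 5.43%, 0.452% and 0% (0 of 22 barcodes) in CD45.1 cells, higher in CD45.2 in 2 of 3 recipients.

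Trbv31 went the other way without passing the test. It lay at 6.37, 5.50 and 7.05 CPM in CD45.2 cells and at 2.80, 3.69 and 1.60 CPM in CD45.1 cells, from 13, 19 and 1 UMIs, and the groups did not overlap. The log2 fold change was 0.94 (SE 0.28) with edgeR adjusted p = 0.0554. Its share of single-UMI barcodes was 9.41%, 7.64% and 8.45% in CD45.2 cells against 3.26%, 5.88% and 0%. The last value is 0 of 22 barcodes, which allows up to 13.6%. Of the 12 leading genes, Trbv1, Trbv20, Trbv26 and Trbv31 had the higher share of calls in CD45.2 cells in all 3 recipients and Trbv15 the lower. The other 7 were mixed, and 3 recipients allow no exact two-sided sign-flip permutation p under 0.25. In recipient 4, Trbv1, Trbv26 and Trbv31 each had 0 of 17 CD45.1 calls. The summed level of Trbv20 was lower in CD45.2 cells in 2 of 3 recipients (log2 fold change -0.30, edgeR adjusted p = 0.573).

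The donors also differed in programme. Foxp3 was found in 20.9% of CD45.2 and 7.11% of CD45.1 barcodes (means of 3 recipients), and at least 3 Il17a UMIs in 24.3% and 8.29%. At least 3 Ccl5 UMIs were found in 12.7% and 21.5%. Among barcodes in none of the 4 programmes, neither Trbv15 (log2 fold change -0.96, edgeR adjusted p = 0.129) nor Trbv29 (-1.57, 0.0826) was called.

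**Figure D4:**
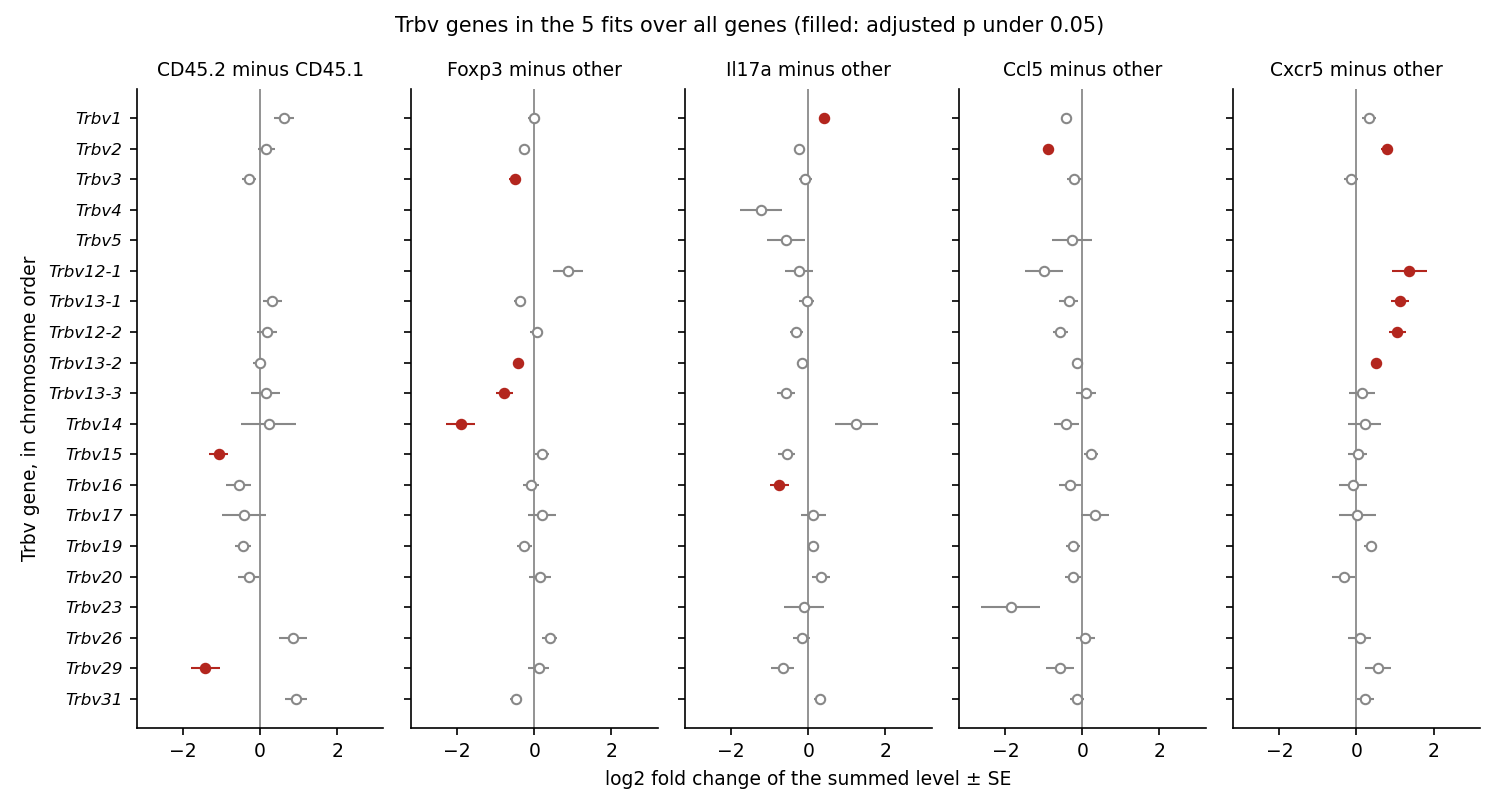
Log2 fold change of the summed level with its SE (x axis) for each Trbv gene tested (y axis, in chromosome order) in the 5 comparisons; filled red points passed edgeR adjusted p under 0.05 over all genes. Of the 14 called points, 6 are higher and 8 lower, and all 5 in the Cxcr5 comparison are higher.

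Foxp3 encodes the transcription factor that defines regulatory T cells. Cells with at least 1 Foxp3 UMI numbered 1636, 1833 and 317, of which 172, 173 and 38 had a call. Of 17 Trbv genes tested against the other cells, 0 rose and 4 fell (23.5%), beside 24.3% of all 11886 genes called in either direction and 11.7% called lower. Both constant regions were called lower too: Trbc1 by -0.34 (SE 0.07, edgeR adjusted p = 0.00554) and Trbc2 by -0.21 (SE 0.04, 0.00317) on the log2 scale, and the part of this in the Trbv values was not tested. The median log2 fold change of the 17 genes was -0.08, and DESeq2 called none of them. In edgeR, 8 of the 17 had an unadjusted p under 0.05, beside 35.4% of all genes.

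Trbv14 fell furthest. It lay at 0.183, 1.12 and 0 CPM in Foxp3 cells, from 2, 13 and 0 UMIs, and at 0.819, 3.87 and 0.900 CPM in the other cells. The Foxp3 cells were lower in 3 of 3 recipients, while the groups overlapped through recipient 2. The log2 fold change was -1.91 (SE 0.38, edgeR adjusted p = 0.00409). Barcodes with Trbv14 made up 0.122% and 0.709% of Foxp3 cells in recipients 1 and 2 against 0.444% and 1.90% of the others. In recipient 4 they were 0 of 317, which allows up to 0.946%, against 0.546%. The other cells include Il17a cells, which in recipient 2 held 129 Trbv14 UMIs. Trbv14 lay there at 7.48 CPM, against 1.42 CPM in the cells of recipient 2 outside the Il17a programme. In recipients 1 and 4 it was lower in Il17a cells (0.297 and 0 against 0.920 and 0.801 CPM). The part of these cells in the Foxp3 result was not tested. The edgeR call of Trbv14 in Foxp3 cells was kept in 7 of the 9 alternatives that could test it. It was lost with DESeq2 (adjusted p = 0.0527) and with no replicate block (0.361).

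Trbv13-3 lay at 2.83, 3.43 and 2.18 CPM in Foxp3 cells and at 3.58, 6.21 and 8.55 CPM in the others, with no overlap (log2 fold change -0.77, SE 0.23, edgeR adjusted p = 0.0341). The call was lost without recipient 2 (0.207). Trbv3 lay at 8.59, 8.67 and 7.09 against 12.5, 10.1 and 17.7 CPM, again without overlap (log2 fold change -0.49, SE 0.16, edgeR adjusted p = 0.0434). That call was lost without recipient 1 (0.122) and in CD45.2 barcodes alone (0.0903).

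Trbv13-2 lay at 10.6, 11.6 and 16.4 CPM in Foxp3 cells and at 13.6, 18.0 and 14.4 CPM in the others. It was lower in 2 of 3 recipients and the groups overlapped (log2 fold change -0.41, SE 0.13, edgeR adjusted p = 0.0466). The call was lost without recipient 1 (0.0618) and without recipient 2 (0.577). In single-UMI barcodes, which the calls leave out, Trbv14 and Trbv3 had the lower share in Foxp3 cells in 3 of 3 recipients, and Trbv13-3 and Trbv13-2 in 2 of 3. Trbv15 had the higher share in Foxp3 cells in 3 of 3 recipients both in calls (9.30%, 8.09% and 5.26% against 2.81%, 5.92% and 4.65%) and in single-UMI barcodes, although its summed level was not called. Of the 12 leading genes, Trbv1 also had the higher share of calls in all 3, and Trbv3, Trbv13-1 and Trbv13-3 the lower. The other 7 were mixed. Trbv3 hardly differed in recipient 1 (12.2% against 12.4%), and Trbv13-2 was higher in recipient 4 (13.2% against 6.98%). Trbv14 had 0 calls in Foxp3 cells and 2, 18 and 0 in the others.

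Il17a encodes the cytokine that marks Th17 cells. Cells with at least 3 Il17a UMIs numbered 2849, 2570 and 150, with 355, 304 and 27 calls. Of 20 Trbv genes tested, 1 rose and 1 fell (10.0%), beside 29.4% of all 12570 genes called in either direction, 14.5% higher and 14.9% lower. The Trbv share was below this background, and neither Trbc1 nor Trbc2 was called. DESeq2 called no Trbv gene, and 7 of the 20 had an unadjusted p under 0.05 in edgeR, beside 38.9% of all genes.

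Trbv1 was higher in Il17a cells. Its level was 10.6, 12.3 and 10.7 CPM against 8.49, 9.15 and 4.94 CPM in the other cells, with no overlap. The log2 fold change was 0.41 (SE 0.12, edgeR adjusted p = 0.0212). Barcodes with Trbv1 made up 4.95%, 4.90% and 3.33% of Il17a cells and 3.21%, 3.54% and 1.66% of the others, and the share was also higher in 3 of 3 after thinning to 3000 UMIs. Its share of single-UMI barcodes was 10.1%, 10.0% and 4.35% against 7.28%, 7.84% and 2.66%. In recipient 4 the Il17a side had only 46 such barcodes, and the 3.33% above is 5 of 150. The share of calls on Trbv1 was 10.7%, 14.1% and 11.1% against 10.2%, 10.9% and 4.37%. It hardly differed in recipient 1 and came from 3 of 27 calls in recipient 4. The call was lost without recipient 1 (edgeR adjusted p = 0.133), without recipient 2 (0.218) and with recipient 3 added (0.876).

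Trbv16 was lower in Il17a cells, at 2.18, 2.84 and 0.972 CPM against 4.58, 3.46 and 5.34 CPM, with no overlap (log2 fold change -0.75, SE 0.24, edgeR adjusted p = 0.0304). Recipient 4 contributed 1 UMI on the Il17a side. The share of single-UMI barcodes was lower in 3 of 3 recipients, at 1.65%, 2.75% and 2.17% against 3.89%, 3.27% and 4.73%. The call was lost without recipient 1 (0.478) and without recipient 4 (0.0591). Trbv2, at 15.5, 14.02 and 16.5 against 17.8, 16.8 and 21.9 CPM, did not overlap either but missed the threshold (log2 fold change -0.24, SE 0.09, edgeR adjusted p = 0.0541).

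Ccl5 encodes a chemokine of effector T cells, and cells with at least 3 Ccl5 UMIs numbered 1402, 1624 and 113, with 133, 161 and 14 calls. Besides Ccl5, a Th1 marker of the fixed list, Cxcr3, was found in 51.9% of them and Tbx21 in 16.3%, against 31.8% and 5.99% of all kept barcodes (means of 3 recipients). Of 19 Trbv genes tested, 0 rose and 1 fell (5.26%), beside 12.5% of all 11734 genes called in either direction, 5.83% higher and 6.66% lower. The gene was Trbv2, and 4 of the 19 had an unadjusted p under 0.05, beside 24.8% of all genes.

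The summed level of Trbv2 was 9.81, 9.54 and 10.7 CPM in Ccl5 cells, from 97, 104 and 8 UMIs, and 18.3, 17.3 and 22.1 CPM in the other cells of recipients 1, 2 and 4. Each Ccl5 value lay far below every value of the other cells. The log2 fold change was -0.89 (SE 0.10, edgeR adjusted p = 0.000533), against a median of -0.28 over the 19 Trbv genes and 0.00 over all genes. The call was kept in 12 of 13 alternatives, DESeq2 and each recipient left out among them, and lost with recipient 3 added (log2 fold change -1.28, adjusted p = 0.0531), where 139 of 11876 genes were called in all.

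Trbv2 also took a smaller share of the calls. It held 12.0%, 14.3% and 7.14% of calls in Ccl5 cells, 16 of 133, 23 of 161 and 1 of 14, and 22.2%, 21.4% and 20.9% in the others. The mean difference was -10.3 percentage points ± 3.34 (SD, n = 3), lower in 3 of 3 (p = 0.25 when signs were flipped in an exact, two-sided permutation test, the smallest that 3 recipients allow). By donor, a split made after these values were seen, the share was 14.4%, 14.8% and 7.69% against 22.6%, 21.3% and 19.5% within CD45.2 cells. Within CD45.1 cells it was 1 of 25 and 4 of 30 calls in the Ccl5 cells of recipients 1 and 2, against 18.6% and 21.6% in the others, and recipient 4 had no CD45.1 call in Ccl5 cells.

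The fall was not seen among barcodes with exactly 1 Trbv UMI. There Trbv2 held 10.5%, 6.88% and 14.3% in Ccl5 cells and 10.2%, 9.71% and 9.27% in the others, higher in 2 of 3 recipients. The level was therefore split into cells with Trbv2 and UMIs per such cell, also after the values were seen. Barcodes with Trbv2 made up 4.78%, 3.69% and 6.19% of Ccl5 cells and 6.23%, 5.64% and 6.30% of the others. Those barcodes held 1.45, 1.73 and 1.14 Trbv2 UMIs in Ccl5 cells and 1.86, 1.81 and 2.11 in the others. Both quantities were lower in 3 of 3 recipients, but in recipient 4 the first rested on 7 of 113 barcodes and hardly differed. As a share of the barcodes with any Trbv UMI, those with Trbv2 were 11.7%, 9.33% and 15.2% in Ccl5 cells against 14.9%, 13.6% and 13.4%, lower in recipients 1 and 2 and higher in recipient 4. Over all Trbv genes, UMIs per positive barcode were 1.55, 1.57 and 1.48 against 1.66, 1.61 and 1.74. The total Trbv level was 91.1 ± 3.36 against 120 ± 17.8 CPM, Trac was called lower (log2 fold change -0.26, SE 0.05, edgeR adjusted p = 0.0125), and Trbc1 (-0.24, 0.0564) and Trbc2 (-0.14, 0.12) were not. Their part in the result was not tested.

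**Figure D5:**
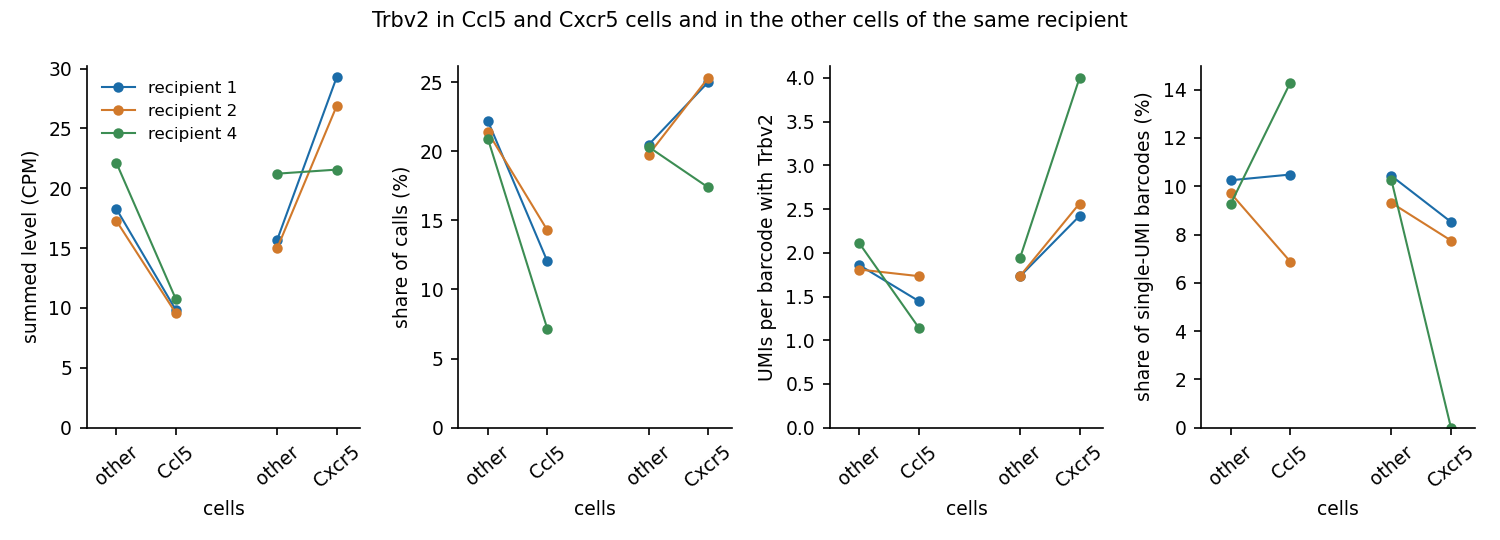
Trbv2 in Ccl5 cells, in Cxcr5 cells and in the other cells of the same recipient, 1 line per recipient: summed level (CPM), share of calls (%), UMIs per barcode with Trbv2 and share of single-UMI barcodes (%). The level falls to 9.54 to 10.7 CPM in all 3 recipients in Ccl5 cells, while the single-UMI share has no common direction.

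Cxcr5 encodes the receptor that draws T cells towards B cell follicles and marks follicular helper cells. Cells with a Cxcr5 UMI numbered 622, 470 and 94, with 120, 83 and 23 calls, and Pdcd1 and Bcl6 were found in 33.0% and 32.5% of them against 12.2% and 9.70% of all kept barcodes. Of 17 Trbv genes tested, 5 rose and 0 fell (29.4%), beside 28.4% of all 11055 genes called in either direction and 14.1% called higher. The rise took in the constant regions: Trbc1 rose by 0.50 (SE 0.06, edgeR adjusted p = 4.27e-05) and Trbc2 by 0.40 (SE 0.04, 1.09e-05) on the log2 scale, and Trac by 0.18 (SE 0.05, 0.0187). The total Trbv level was 148 ± 10.1 against 113 ± 18.1 CPM (SD, n = 3). Values of single Trbv genes are to be read against that total, and its part in them was not tested.

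Trbv2 lay at 29.3, 26.9 and 21.6 CPM in Cxcr5 cells and at 15.7, 14.98 and 21.2 CPM in the others (log2 fold change 0.78, SE 0.13, edgeR adjusted p = 0.000835). The groups did not overlap, but recipient 4 differed little between them. Without recipient 1 the call was lost (0.122). Barcodes with Trbv2 held 2.42, 2.56 and 4 Trbv2 UMIs in Cxcr5 cells and 1.73, 1.73 and 1.94 in the others. The share of calls was higher in recipients 1 and 2 (25.0% and 25.3% against 20.5% and 19.8%) and lower in recipient 4 (17.4% against 20.3%). The share of single-UMI barcodes was lower in 3 of 3. Among barcodes with a call alone, the summed level was not called (log2 fold change 0.29, edgeR adjusted p = 0.265).

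Trbv12-2 lay at 7.74, 13.2 and 12.1 CPM against 4.45, 5.78 and 4.12 CPM, with no overlap (log2 fold change 1.06, SE 0.21, edgeR adjusted p = 0.00226). Barcodes with Trbv12-2 made up 5.14%, 8.30% and 8.51% of Cxcr5 cells and 2.25%, 2.96% and 1.89% of the others, and 8.67%, 14.4% and 14.8% against 5.56%, 7.38% and 4.15% of the barcodes with any Trbv UMI. UMIs per such barcode were 1.28, 1.26 and 1.12 against 1.25, 1.16 and 1.28, a mixed direction. The call was kept in 11 of the 12 alternatives that could test it and lost with recipient 3 added (adjusted p = 0.104), where 3 of 11268 genes were called in all. The share of calls on Trbv12-2 was 1.67%, 3.61% and 4.35% in Cxcr5 cells, from 2, 3 and 1 calls. It was 2.05%, 2.11% and 1.60% in the others, so recipient 1 went the other way. The mean difference in this share kept its sign in 10 of 13 alternatives, between -2.12 and 3.48 percentage points.

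Trbv13-1 lay at 11.5, 8.33 and 26.9 CPM in Cxcr5 cells against 5.18, 5.48 and 6.43 CPM (log2 fold change 1.13, SE 0.24, edgeR adjusted p = 0.00357), and its call was lost without recipient 1 (0.0809). Trbv12-1, the close relative of Trbv12-2, lay at 2.27, 1.88 and 8.08 CPM from 12, 7 and 6 UMIs against 1.17, 0.805 and 1.29 CPM (log2 fold change 1.37, SE 0.45, edgeR adjusted p = 0.0377). Its call was lost without any 1 of the recipients (0.0816 to 0.154). Trbv13-2 lay at 17.9, 23.1 and 17.5 against 12.5, 16.1 and 14.5 CPM (log2 fold change 0.50, SE 0.12, edgeR adjusted p = 0.00957). That call was lost without recipient 1 (0.214) and without recipient 2 (0.177), and in called barcodes alone the sign turned (-0.36). None of the 3 genes had overlapping groups. Trbv12-1, Trbv12-2 and Trbv13-1 also had the higher share of single-UMI barcodes in 3 of 3 recipients, though recipient 4 had only 23 such barcodes in Cxcr5 cells. That of Trbv13-2 was lower in 2 of 3 (10.8%, 17.1% and 8.70% against 13.5%, 15.5% and 13.0%). The share of calls on Trbv13-1 was 9.17%, 3.61% and 13.0% against 4.61%, 6.44% and 5.88%, lower in recipient 2. That on Trbv13-2 was also lower in recipient 2 (9.64% against 13.3%). Trbv12-1 had 1 call in the Cxcr5 cells of each recipient.

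Concentration of usage had overlapping ranges in all groups of cells compared. The effective number of genes, the inverse of the chance that 2 called barcodes of a recipient share their gene, was 9.93 ± 0.273 over all calls (SD, n = 3). It was 9.88 ± 0.553 in CD45.2 and 9.13 ± 3.46 in CD45.1 cells, where recipient values ran from 5.23 to 11.8 on 17 to 95 calls. It was 9.67 ± 0.794 in Il17a, 10.9 ± 1.14 in Foxp3, 10.5 ± 2.47 in Cxcr5 and 13.5 ± 4.39 in Ccl5 cells. The spreads overlapped, and no test was made.

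Overlap of usage was described with the Morisita index, which is near 1 when a pair of samples shares its gene shares. Between recipients it was 0.955 on average over all calls (0.931 to 0.976), 0.952 for CD45.2 and 0.830 for CD45.1 cells. Between both donors of a recipient it was 0.929 (0.874 to 0.965). Programmes are not exclusive, and 1602 kept barcodes were in 2 or more. The lowest mean between programmes of a recipient was that of Ccl5 with Cxcr5 cells, 0.818 (0.621 to 0.932), and the other pairs had means of 0.914 to 1.05. The 0.621 was that of recipient 4, from 14 and 23 calls, while recipients 1 and 2 had 0.932 and 0.901. In recipient 2, Foxp3 with Ccl5 cells was lower, at 0.892.

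Other receptor genes were read beside the Trbv genes in the donor comparison. Of 128 Trav genes, the variable genes of the alpha chain, 24 were tested, 0 rose and 1 fell (4.17%, beside 12.9% of all genes). This was Trav7-6, at 1.35, 0.841 and 1.61 CPM in CD45.2 cells against 5.17, 1.55 and 6.41 CPM (log2 fold change -1.60, SE 0.41, edgeR adjusted p = 0.0268), from 24, 8 and 4 UMIs in CD45.1 cells. Trac (log2 fold change 0.12, edgeR adjusted p = 0.338), Trbc1 (-0.10, 0.541) and Trbc2 (-0.13, 0.264) did not pass the test. These were among 15 listed receptor and signalling genes, of which 1 rose and 2 fell (20.0%), all 3 of them constant regions of the gamma chain. Tcrg-C4 lay at 6.25, 8.43 and 18.1 CPM in CD45.2 cells against 30.6, 27.8 and 25.6 CPM, with no overlap (log2 fold change -1.76, SE 0.23, edgeR adjusted p = 0.00054). Tcrg-C1 rose (log2 fold change 0.68, SE 0.12, edgeR adjusted p = 0.00344) and Tcrg-C2 fell (-0.50, SE 0.12, 0.0191), both with overlapping groups, and the gamma constant regions include close copies between which UMIs may be split. No barcode held 2 UMIs of Trav11, the alpha gene of invariant NKT cells, so their Trbv usage could not be read.

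Which constant region was joined could be read in few cells. Of the called barcodes, 757 held UMIs of only Trbc1 or only Trbc2, and 19 of these (2.51%, Wilson 95% interval 1.61 to 3.89%) held Trbc1. Most called barcodes, 733, 652 and 145 in recipients 1, 2 and 4, held both and were left out. The 2.51% therefore cannot be read as the share of called cells joined to Trbc1. Among barcodes with only 1 of the constant regions, Trbc1 was held by 5 of 173 for Trbv2 and 2 of 103 for Trbv3. It was held by 3 of 28 for Trbv26, the highest share among the 12 leading genes, with an interval of 3.71 to 27.2%. The intervals of Trbv2, Trbv3 and Trbv26 overlapped. The coding sequences of both constant regions are near-identical, so UMIs can be assigned to the other copy.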

How the data were processed

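CD4 T cells of 4 recipients were profiled with the 10x Genomics 3′ chemistry. The deposited matrices hold raw UMI counts per gene and barcode, which the authors produced on mm10 using Cell Ranger 6.1.1, as the submitters' processing notes record. The annotation behind them is not stated in the sources used here. The 2 antibody tags are counts in the same matrices. Barcodes were kept with at least 500 genes and at most 10% mitochondrial UMIs. At most 33 barcode sequences were shared between libraries, none with equal UMI totals. Doublets were not removed, but an alternative dropped barcodes above 3 times the median UMI count. Replicates are recipients.

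UMIs were summed per recipient and side. All genes were tested by quasi-likelihood F test (edgeR 4.0.16, R 4.3.3; TMM, its default filter, recipient as a block; Benjamini-Hochberg adjusted p under 0.05). CPM are edgeR's library-size scaled counts after TMM. Log2 fold changes subtract CD45.1 from CD45.2, or the other cells from the programme cells. The test was also run on simulated counts, and no result of that run is used here. Both sides come from the same animal. Their deviations correlated at 0.355, 0.658 and 0.586 in recipients 1, 2 and 4 for the donors (6456 genes with at least 10 UMIs in each sum), and at 0.447 to 0.691 for the programmes. DESeq2 1.42.0, other size factors and filters, other call, tag and programme thresholds, thinning to 3000 UMIs, leaving out recipients and adding recipient 3 were alternatives. Shares are descriptions with Wilson 95% intervals, which like limits from 3 counts cover counting error only, with SD over recipients.

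Named genes were those with a mean share of at least 3% and those called in any of the 5 comparisons. Members and lists were chosen with earlier results of these data known. Coordinates and transcripts are from GENCODE M21 (GRCm38), matched by identifier for 35 of 35 genes. Identities come from global alignments of the annotated transcripts, which were not trimmed to the variable exons.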

Additional observations from a re-analysis of the deposited data

Results flagged for a closer look

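In recipient 3, which the comparisons leave out, Trbv12-2 took 25.7% of the Trbv UMIs, against 3.62 to 5.77% in the other 3 recipients. In recipient 4, Trbv20 took 9.61% of the Trbv UMIs, against 3.18 to 4.01% in the others. Each value stood apart from the other 3 recipients by more than Dixon's 95% critical value for 4 samples. Of 25 quantities examined this way, 2 stood apart, and chance gives about 1 in 20.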

How the results depend on the processing

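Counts of called Trbv genes were small and moved with the settings. With no replicate block, 0, 0, 0, 1 and 2 genes were called for the donors, Foxp3, Il17a, Ccl5 and Cxcr5, against 2, 4, 2, 1 and 5, and with DESeq2 0, 0, 0, 1 and 3. With recipient 3 added the counts were 1, 1, 0, 0 and 0, and with only barcodes with a Trbv call 0, 0, 3, 2 and 1. Calls over all genes fell too, from 1423, 2885, 3690, 1465 and 3139 to 422, 801, 986, 257 and 1226 with no replicate block, 877, 1798, 1917, 796 and 1829 with DESeq2, 522, 503, 409, 139 and 3 with recipient 3 added, and 373, 730, 1214, 568 and 899 in barcodes with a Trbv call. Without a filter on low counts the counts of called Trbv genes were 4, 5, 5, 3 and 5, and in CD45.2 barcodes alone 2, 5, 2 and 5 for the 4 programmes. The donor count was 1 at a tag ratio of at least 16-fold and 0 in barcodes of no programme. With the stricter programme thresholds the counts were 3, 4, 1 and 3, and for Il17a 5 were called with exactly 1 programme against none. Leaving out each recipient gave 1 to 2, 1 to 5, 1 to 3, 1 to 3 and 1 to 5 genes. Trbv13-2 in Cxcr5 cells turned to -0.36 in barcodes with a Trbv call. Of 175 retests of the 14 called levels, 106 kept the call, 68 lost it with the same sign and 1 reversed. For shares, the alternatives left 10 to 13 genes at a mean of at least 3%. The effective number of genes was 8.17 with at least 3 Trbv UMIs, 12.3 with at least 1 and 10.4 with recipient 3 added, and 9.78 to 10.1 when each recipient was left out. The causes were not tested, beyond what fewer barcodes or recipients imply. Single-UMI barcodes and the split of levels were added after seeing the data. CD45.1 cells gave 95, 81 and 17 calls, and recipient 4 gave 14 in Ccl5 and 23 in Cxcr5 cells, which limits what a share there can show.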
